A study of Mus musculus with 5 samples.

Results

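The genes described here are 10 transcription factor genes that pattern the midbrain and the anterior hindbrain: Otx1, Otx2, En1, En2, Gbx2, Pax5, Irx1, Irx2, Irx3 and Irx5. They were followed through every probe set that the platform annotation assigns to 1 of these symbols alone, which gave 11 probe sets for the 10 genes, out of 18193 named genes in all. The choice of genes was made with their values on these arrays in view, so their signals are given as a description and without a test. The arrays were Affymetrix expression arrays hybridised with RNA from 4 mouse medulloblastomas, which are tumours of the cerebellum, and from 1 mouse cerebellum labelled P5, read as postnatal day 5. Cxcr6 mutation, in a chemokine receptor gene, and a Smoothened inhibitor are named in the title of the series, but no genotype, treatment or strain is given for a single array, and no age for a tumour. Each tumour is 1 array, so a single tumour's value has no error of its own, and differences of tissue and of age between tumours and cerebellum cannot be told apart. The titles of medulloblastomas 1 and 2 carry the prefix ken, and those of medulloblastomas 3 and 4 and of the cerebellum the prefix hmk.

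The boundary between midbrain and hindbrain, the isthmus, is set in the early neural tube where Otx2, made in front of it, meets Gbx2, made behind it, and each represses the other. Signals from the isthmus, Fgf8 and Wnt1, then keep the engrailed genes En1 and En2 and the paired-box gene Pax5 active around it, and the cerebellum grows from the tissue just behind. Iroquois (Irx) genes subdivide the neural plate and are used again later in many tissues. Otx1 and Otx2 return in the developing cerebellum in precursors of granule neurons, and Otx2 is also made in the choroid plexus, the pineal gland and the retina. All of the 10 genes but Pax5 encode a complete homeodomain, the DNA-binding fold of this class; Pax5 binds DNA mainly through its paired domain and carries only a partial homeodomain.

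Markers of granule neuron precursors were read beside the cerebellar label of the arrays. All 10 markers had a probe set, and all reached the mean signal of 100 used below. So did 14109 of all 18193 named genes, so reaching it says little about the label. The summed signals of 46155 to 49189 among the tumours against 53947 on the cerebellum array are carried by Zic1 (16490 to 24340) and hide single markers that differed: in limma Atoh1, which marks proliferating precursors, was higher in the tumours (4178, 7341, 9505 and 7872 against 963; 2.81 on the log2 scale, adjusted p = 0.0336), and the netrin receptor gene Unc5c was lower (982, 685, 474 and 635 against 3852; -2.47, adjusted p = 0.0427). Without medulloblastoma 4, and without limma's variance trend, 0 genes were called in either direction, these included. Without medulloblastoma 2, 0 genes were called lower, so the call of Unc5c was lost there too. The array medians were 191 to 213 for the tumours and 232 for the cerebellum.

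Otx1 differed most between the tumours of the 10 genes on the log2(signal + 32) scale, which is used throughout for differences. Its signal was 36.3 in medulloblastoma 1, 479 in medulloblastoma 2, 2067 in medulloblastoma 3, 2125 in medulloblastoma 4 and 26.5 in the P5 cerebellum. Medulloblastoma 1 and the cerebellum were both near the bottom of their arrays, at the 17.3 and 10.3 percentile of all probe sets, whereas medulloblastomas 3 and 4 were at the 93.0 and 93.5 percentile. Medulloblastomas 3 and 4, the hmk tumours, lay 5.17 and 5.21 above the cerebellum on the log2 scale, medulloblastoma 2 lay 3.13 above it and medulloblastoma 1 lay 0.22 above it. The mean difference from the cerebellum was 3.43 ± 2.35 (SD, n = 4). The step from medulloblastoma 1 to medulloblastoma 4 was 58.6-fold in deposited signal. The order of the last 2 values, 2067 and 2125, has no error behind it, and neither has that of 36.3 and 26.5.

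Otx2 ran the other way across the same tumours. Its signal was 1608 in medulloblastoma 1, 1111 in medulloblastoma 2, 95.3 in medulloblastoma 3, 126 in medulloblastoma 4 and 843 in the cerebellum. The ken tumours therefore lay above the cerebellum, at 1.91 and 1.32 times its signal, and the hmk tumours lay below it, at 0.113 and 0.150 times, an arrangement found for 3.57% of all genes tested. The highest tumour was 16.9-fold above the lowest. On the log2 scale the differences from the cerebellum were 0.91, 0.39, -2.78 and -2.47 in medulloblastomas 1 to 4, with a mean of -0.99 ± 1.90 (SD, n = 4), so that the mean hides tumours on both sides. Medulloblastoma 1 thus had the highest Otx2 with Otx1 near the bottom of its array, medulloblastoma 2 had signals of both genes, and medulloblastomas 3 and 4 had high Otx1 with low Otx2.

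**Figure D1:**
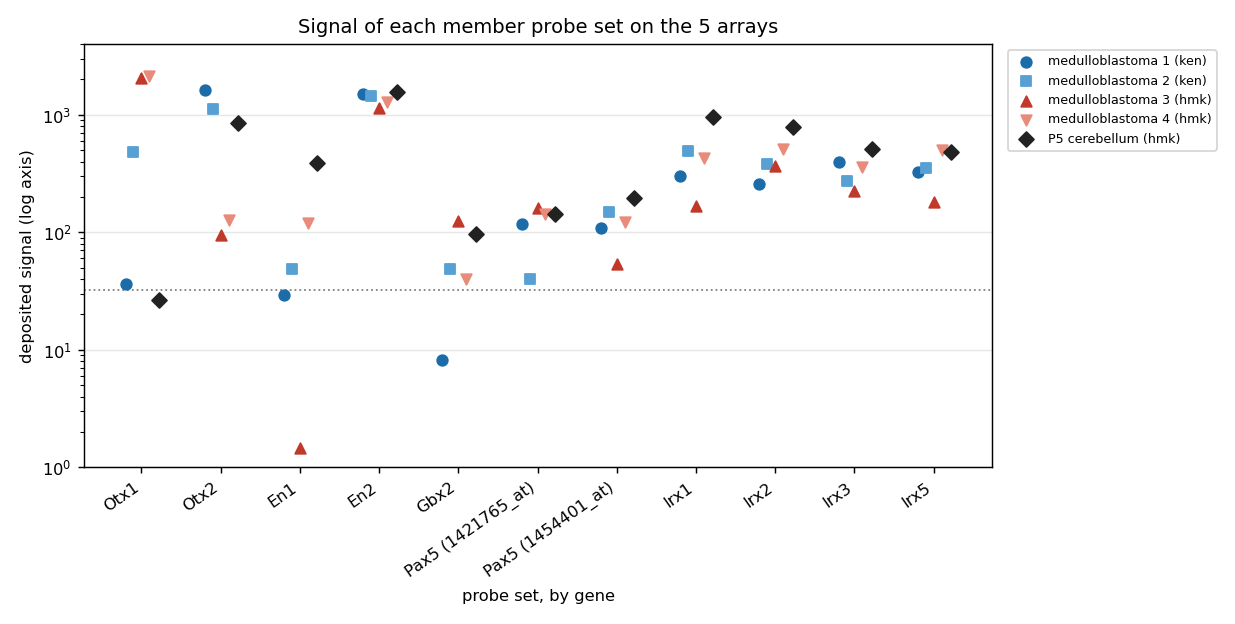
Deposited signal (log axis) of the 11 probe sets of the 10 genes, 1 point per array, with the ken tumours in blue, the hmk tumours in red and the P5 cerebellum in black; the dotted line is the constant of 32 added before taking logs. Otx1 spans 36.3 to 2125 among the tumours and Otx2 95.3 to 1608 in the opposite order of prefixes, whereas En2 lies between 1148 and 1549 on all 5 arrays.

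A mean signal of 100 or more was found for 14109 genes. Across them, the SD among the 4 tumours had a median of 0.31, where that of Otx1 was 2.35 and that of Otx2 1.90. The title prefix divided the tumours without overlap for both genes. For Otx2 the lower ken tumour was 2.85 above the higher hmk tumour on the log2 scale, and for Otx1 the lower hmk tumour was 2.04 above the higher ken tumour. As background, both ken tumours lay above both hmk tumours for 23.3% of genes and both hmk tumours above both ken tumours for 21.5%. Both genes were chosen with these values known, so nothing is read from the size of their gaps beside other genes. With a constant of 8, or one 4 times as large, in place of 32, the gap was 3.06 or 2.28 for Otx2 and 2.09 or 1.85 for Otx1. With 2 tumours of each prefix, and no cerebellum among the ken arrays, the prefix and whatever else distinguishes these tumours cannot be told apart. Medulloblastoma 3 has no processing tool stated and medulloblastoma 4 names a different extraction, so neither of these entries is shared by the hmk tumours.

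Promoter windows from RefSeq (GRCm38.p6; 250 bases before to 50 after a transcript start) were matched for 6 of the 10 genes, Otx2, En1, Gbx2, Pax5, Irx2 and Irx3, with 9 windows in all. They were searched on both strands for TAATCC, the core that Otx proteins themselves bind, and for TAATTA, which many homeodomain proteins bind. TAATCC was in 7.06% and TAATTA in 5.29% of all 32851 windows of this length. Of the 9 windows, 1 held TAATCC, and it belongs to Otx2; TAATTA occurred in that window and in 1 other, also of Otx2. The windows are shown because Otx2 is the gene whose level turned between the tumours, and because the gene has several starts, which the single Otx2 probe set does not tell apart. Both are on the minus strand and read 5′ to 3′, with the matches in capitals; the first lies at chr14:48667595-48667894 and has 1 TAATTA, and the second lies at chr14:48665060-48665359 and holds TAATTA 3 times and, read on its other strand, TAATCC 1 time, with no overlap between them. A match is a run of letters and not a measured binding site.
Otx2 upstream start: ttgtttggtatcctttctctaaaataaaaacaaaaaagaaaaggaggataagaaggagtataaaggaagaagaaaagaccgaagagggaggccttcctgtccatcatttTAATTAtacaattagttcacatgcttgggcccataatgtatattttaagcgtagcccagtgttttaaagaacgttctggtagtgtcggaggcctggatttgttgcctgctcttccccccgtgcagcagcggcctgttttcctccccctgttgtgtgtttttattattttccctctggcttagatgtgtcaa
Otx2 inner start: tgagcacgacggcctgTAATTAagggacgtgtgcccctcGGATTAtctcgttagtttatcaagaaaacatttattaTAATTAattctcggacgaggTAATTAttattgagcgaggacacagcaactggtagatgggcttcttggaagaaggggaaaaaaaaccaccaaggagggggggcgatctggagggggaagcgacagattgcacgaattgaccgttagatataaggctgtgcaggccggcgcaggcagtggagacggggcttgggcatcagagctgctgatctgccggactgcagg

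The genes nearest to Otx2 in their pattern over the 5 arrays were Wipf3, Slc1a5, Tmem191c, Acad10 and Ttr. Nearness is the root-mean-square distance between log2 values after each gene's own mean over the 5 arrays is subtracted, and it was between 0.28 and 0.49 for these genes. Slc1a5, a glutamine transporter gene, read 611, 436, 28.3 and 23.4 in medulloblastomas 1 to 4 and 190 in the cerebellum. Wipf3, of a family that binds actin regulators, read 509, 454, 44.8 and 45.4 against 387. Ttr, which encodes the thyroid hormone carrier transthyretin made by the choroid plexus, read 31466, 14592, 3808 and 4073 against 11956. All 4 probe sets of Ttr had the ken tumours above and the hmk tumours below the cerebellum. For Acad10 and Tmem191c the pattern depended on the probe set: a second one of Acad10 read 72.0, 226, 254 and 253 against 287, and of the 3 others of Tmem191c 1 had the ken above the hmk tumours (510, 257, 170 and 123 against 599) and the others did not. For Slc1a5 a dimmer second probe set read 259, 114, 24.5 and 182 against 138. With each tumour left out in turn, between 1 and 3 of the 5 genes were again among the 5 nearest, and with all probe sets of a gene averaged 2 were. In the hmk arrays alone 0 were. Tmem191c, Acad10 and Ttr were read through probe sets of kinds that can bind related transcripts, and without such probe sets 3 of the 5 were kept.

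Because Otx2 and Ttr are both made by the choroid plexus, which lies beside the cerebellum, the other markers of that tissue were read as well. Of 12 markers 11 had a probe set, and their summed signal was 33664 and 16338 in the ken tumours, 5327 and 6108 in the hmk tumours and 14144 in the cerebellum, an order set by Ttr. Without Ttr the sums were 2197, 1746, 1519 and 2036 in medulloblastomas 1 to 4 and 2188 in the cerebellum, of which Clic6 gave the largest part in every tumour. Besides Ttr, Kcnj13 (390, 349, 91.6 and 187 against 323) and the dim Slc4a5 had both ken tumours above both hmk tumours. These were 3 of the 11 in all and 2 of the 8 bright enough to be tested, where 23.3% of all tested genes had this order. Clic6 (634, 653, 774 and 761 against 597) and Kcne2 had the reverse, and Folr1, Aqp1, Calml4, Cldn2, Kl and Sostdc1 did neither. The low end of the list was Kl at 16.6 and Slc4a5 at 15.5 in medulloblastoma 3 and Kcne2 at 30.6 in medulloblastoma 2. Markers of mature neurons also differed by prefix: 6 of 6 markers of mature granule neurons (summed signal 30298 and 15053 in the ken and 7288 and 10000 in the hmk tumours, 8942 in the cerebellum) and 4 of 7 Purkinje cell markers (28483 and 16967, then 8590 and 12138, with 39933 in the cerebellum) were higher in both ken than in both hmk tumours, again beside 23.3% of all tested genes. The Purkinje cell markers Lhx1 and Lhx5 had the reverse order, as 21.5% of all tested genes had. That order, which Otx1 shares, was also found in 7 of 9 tested markers of meninges and fibroblasts, with 2 the other way. Among 9 tested markers of microglia and macrophages it was found in 4, with 0 the other way. The part of any of these in the Otx1 and Otx2 values was not tested. In bulk RNA, fewer cells of a type and less RNA per cell cannot be told apart.

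**Figure D2:**
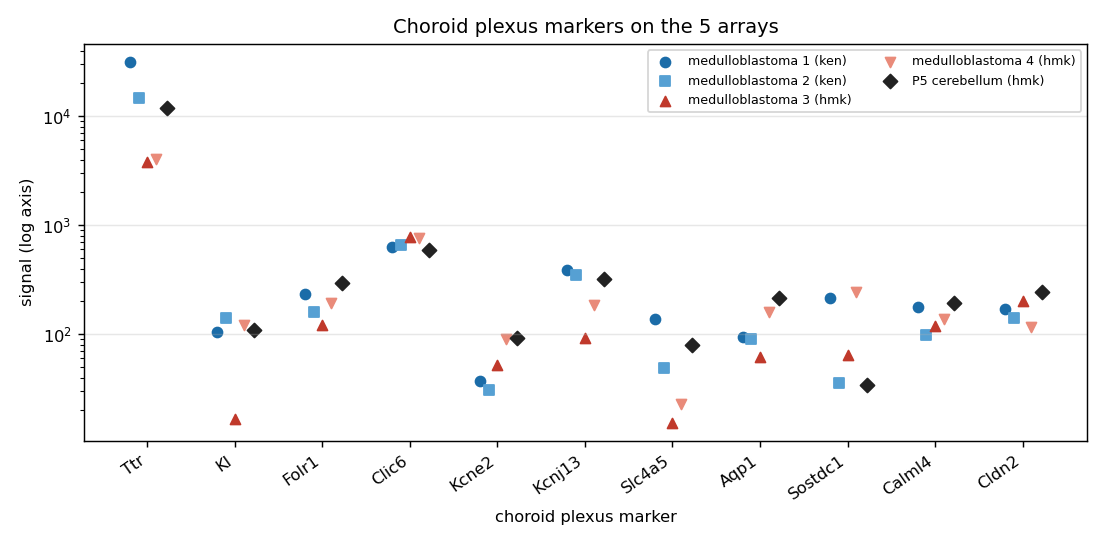
Signal (log axis) of the 11 choroid plexus markers with a probe set, 1 point per array, colours as for the 10 genes. Ttr falls from 31466 in medulloblastoma 1 to 3808 in medulloblastoma 3, whereas Clic6 stays between 597 and 774.

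Pineal and photoreceptor cells make Otx2 too. Of 11 such markers 9 had a probe set, and their summed signals ran from 657 to 1077 among the tumours against 512 in the cerebellum. The brightest in the tumours were Gngt2, a transducin subunit gene of cones (127.7, 274, 246 and 293 against 97.0), the cone opsin gene Opn1sw (120, 54.5, 63.9 and 241 against 46.0), Tph1, a serotonin synthesis gene of the pineal gland (156, 141, 126 and 213 against 124), and Aanat, of melatonin synthesis (55.8, 47.4, 192 and 189 against 99.5). The dimmest were recoverin (Rcvrn), at most 16.5 in a tumour, and the phosphodiesterase gene Pde6b, at most 31.2. Their part in the Otx2 values was not tested either.

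For Otx1 the nearest genes were Cavin2, Lcn2, Hebp1, Cyct and Chil3, at distances between 0.58 and 1.10. They were less near than those of Otx2, and Otx1 had a wider span than each of them. Cavin2, a component of caveolae, read 616, 3542, 6737 and 8137 in medulloblastomas 1 to 4 and 342 in the cerebellum, and its other probe sets, at 242, 1843, 3441 and 5021 against 149 and at 251, 1630, 3095 and 4924 against 166, had the same order. Lcn2, a protein that binds iron-carrying siderophores, read 268, 958, 2679 and 3437 against 131. The heme-binding protein gene Hebp1 read 130, 407, 671 and 837 against 16.9. Cyct, the testis form of cytochrome c, read 172, 183, 1091 and 889 against 22.2, and Chil3, a chitinase-like protein of macrophages, was dim, at 8.93, 59.8, 325 and 185 against 9.19. In all 5 the hmk tumours were the highest arrays, as for Otx1. With each tumour left out in turn, between 2 and 4 of the 5 were again among the 5 nearest, and in the hmk arrays alone 1 was.

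**Figure D3:**
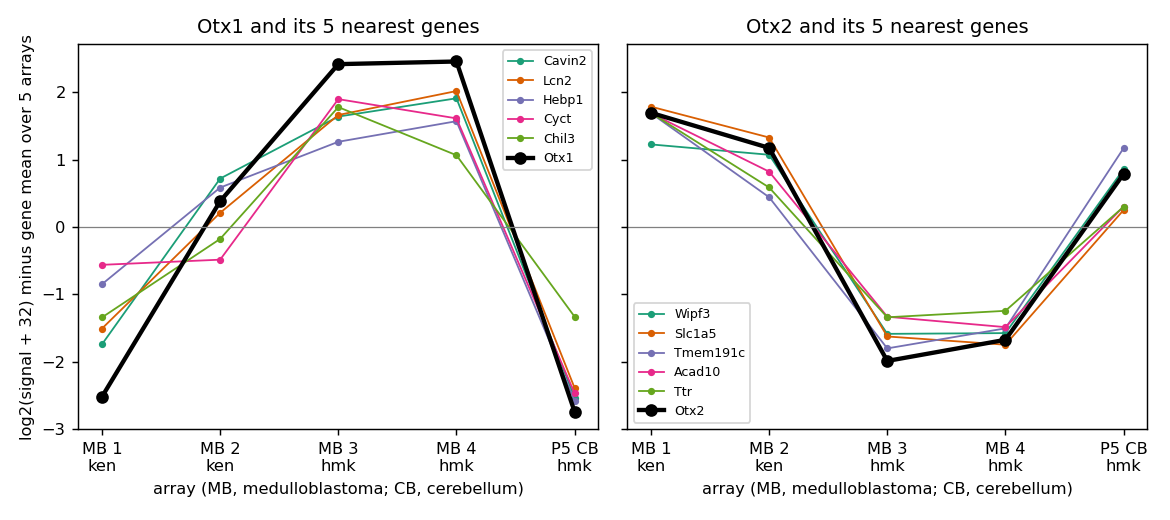
Otx1 (left) and Otx2 (right) in black with the 5 genes nearest to each in pattern, as log2(signal + 32) minus each gene's mean over the 5 arrays; the lines only join a gene's points. Otx1 is highest in medulloblastomas 3 and 4 and lowest in medulloblastoma 1 and the cerebellum, and Otx2 is highest in medulloblastoma 1 and lowest in medulloblastomas 3 and 4.

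The engrailed genes, repressors that act downstream of the isthmic signals, did not share a pattern. En2, which stays active in granule cells of the cerebellum, was bright on every array, with 1507, 1440, 1148 and 1285 in medulloblastomas 1 to 4 and 1549 in the cerebellum. All 4 tumours were below the cerebellum, but by little: the log2 difference was -0.21 ± 0.17 (SD, n = 4), and it was -0.02 after a scaling to equal array medians, with tumours on both sides. En1 read 29.4, 48.3, 1.47 and 121 against 389 in the cerebellum, so every tumour was at most at 0.311 times the cerebellum's signal. The log2 difference was -2.57 ± 0.91, the widest of the 10 genes below the cerebellum, and it was -1.58 with a constant 4 times as large, since 2 of the tumour signals are under the 32 that is added. The value of 1.47 in medulloblastoma 3 was at the 0.1 percentile of its array. En1 reached the mean signal of 100 needed for the fit only through the cerebellum, so it could pass that filter only with such a difference.

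Gbx2, the repressor that opposes Otx2 on the hindbrain side, and Pax5 were dim. Gbx2 read 8.12, 48.4, 125 and 40.3 in the same order of tumours, with 97.4 in the cerebellum. Its log2 difference was -0.73 ± 0.81, with medulloblastoma 3 above the cerebellum, and it was the only member whose mean signal was under 100. Its order among the tumours had medulloblastoma 3 highest and medulloblastoma 1 lowest, the reverse of Otx2, while medulloblastoma 4 had low values of both genes. This order is drawn from low signals, so nothing is read from it beside Otx2. The 2 probe sets of Pax5 did not share a pattern: 1 read 109, 150, 54.0 and 121 against 197, below the cerebellum in all 4 tumours, and the other read 118, 39.99, 160 and 143 against 142, on both sides of it, with both hmk tumours above and both ken tumours below, an arrangement of 3.11% of all genes. Their log2 differences were -0.76 ± 0.46 and -0.34 ± 0.64. Pax5 is also a gene of B lymphocytes. Of 11 markers of these cells 10 had a probe set, with summed signals from 2022 to 2590 among the tumours against 2851 in the cerebellum. Of the 8 tested, 3 were below the cerebellum in all 4 tumours and 0 above it, beside 30.8% and 25.1% of all tested genes. The 3 were Ms4a1 (117, 135, 119 and 232 against 283), Vpreb3 (41.1, 61.2, 188 and 160 against 371.5) and Igll1 (18.7, 38.0, 211 and 23.9 against 214). Of the receptor chains that define B cells, Cd79a read 167, 133, 109 and 24.8 against 125 and Cd79b read 22.1, 9.83, 11.9 and 20.1 against 11.5. Ebf1, which other cells also make, was the brightest of the list (1136 to 1581 among the tumours), and Blnk read 202, 250, 227 and 130 against 247. Their part in the Pax5 values was not tested.

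The 4 Iroquois genes read lower in most tumours than in the cerebellum. Irx1 read 302, 495, 167 and 432 against 964, a log2 difference of -1.48 ± 0.63 (SD, n = 4). Irx2 read 255, 383, 367 and 512 against 783 (-1.02 ± 0.38), and Irx3 read 393, 271, 226 and 362 against 513 (-0.69 ± 0.33). For these 3 genes the cerebellum was above all 4 tumours. Irx5 read 323, 353, 182 and 502 against 482 (-0.54 ± 0.55), with medulloblastoma 4 at 1.04 times the cerebellum and the others below it. Irx1 and Irx2 are neighbours in the mouse genome, as are Irx3 and Irx5, with 0 protein-coding genes between the genes of each pair, and each cluster goes on to 1 more gene, Irx4 beside Irx2 and Irx6 beside Irx5. Irx6 read 104, 122, 75.1 and 41.8 against 209 (-1.09 ± 0.67, SE; limma adjusted p = 0.467) and reached the mean signal of 100 only through the cerebellum, and Irx4 read 3.96, 17.7, 26.9 and 8.37 against 147 and was too dim to be tested.

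**Figure D4:**
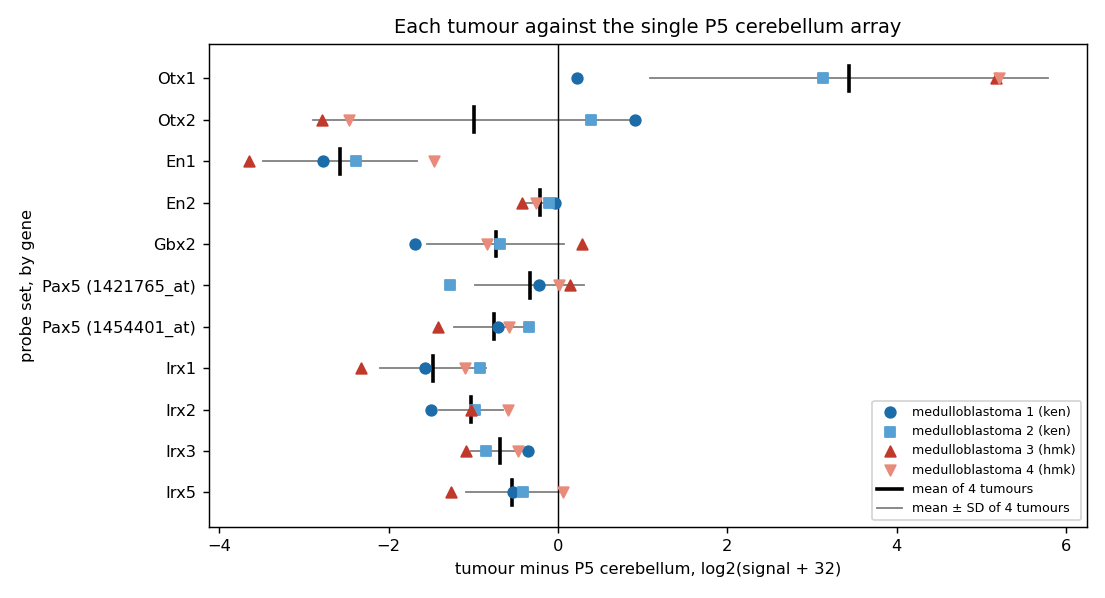
Each tumour minus the single P5 cerebellum array on the log2(signal + 32) scale, 1 row per probe set, with the mean (bar) and mean ± SD of the 4 tumours (line). Otx2 has tumours at 0.91 and -2.78, En1 lies between -1.46 and -3.65, and the Irx means lie between -0.54 and -1.48.

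Over the 9 members with a mean signal of at least 100, each taken at its brightest probe set, 1 (Otx1) was above the cerebellum in all 4 tumours, where 25.1% of all tested genes were, and 6 (En1, En2, Pax5, Irx1, Irx2 and Irx3) were below it in all 4, where 30.8% of all tested genes were. Their median log2 difference was -0.76, and that of all genes was -0.07. The genes were chosen on this contrast, so nothing is read from these counts. Besides, Otx1 reached the mean signal of 100 only through the tumours, and En1 only through the cerebellum. Medulloblastoma 3 had the lowest signal among the tumours for 7 of the 11 probe sets, medulloblastoma 1 for 3 and medulloblastoma 2 for 1. The array of medulloblastoma 3 also had the lowest median, 191 against 200 to 213 for the other tumours. The same share over all probe sets was not counted, so nothing is read from this order. The part of the array itself in it was not tested. Markers of other cells differed between tumours and cerebellum too: 5 of 7 tested Purkinje cell markers and 5 of 9 tested markers of meninges and fibroblasts (summed signals 3008 to 5066 against 11984) were below the cerebellum in all 4 tumours, and 9 of 9 of microglia and macrophages (13754 to 15932 against 6148) were above it. Markers of midbrain dopamine and hindbrain serotonin neurons summed to 726 to 1101 against 624. Their part in the values of the 10 genes was not tested.

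Other genes of regional patterning were taken from 6 lists, of which 85 of 96 genes had a probe set and 53 were bright enough to be tested. In limma 1 was called higher and 0 lower over all genes tested, where 0.312% of all tested genes were called higher and 0.177% lower. At an unadjusted p under 0.05 in limma, 3 of the 53 were higher and 5 lower, beside 1089 and 1050 of all 14109 genes tested. Nothing is read from these unadjusted counts. Without limma's variance trend the calls were 0 and 0. The median log2 difference of the 53 was -0.16, with 10 above and 17 below the cerebellum in all 4 tumours, beside 25.1% and 30.8% of all tested genes. In 4 of the 53 (Sp5, Pitx3, Irx6 and Hoxd8) the mean of the tumours was under 100, so that they were tested only through the cerebellum's higher signal. In 3, Lhx2 and Dlx5 among them, the cerebellum's signal was under 100, so that these were tested only through the tumours. Another 32 were too dim to be tested, of which 12 were below the cerebellum in all 4 tumours and 3 above it. Fgf8, Wnt1, Gbx1 and Irx4 were named from these after their values were seen, and all are among the 12. Nothing is read from their direction.

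Among 13 tested signals of the isthmus and their readouts the median was -0.23, with 0 called, 3 above the cerebellum in all 4 tumours and 6 below, beside the same shares of 25.1% and 30.8%. Fgf8 itself, the isthmic growth factor, was at 5.36 to 7.22 in the tumours against 16.1 in the cerebellum, and Wnt1 between 26.3 and 65.7 and at 167, both too dim to be tested. The largest differences were those of Sp5, a target of Wnt signalling (16.0, 101, 66.0 and 126 against 576; -2.61 ± 0.76, SE, adjusted p = 0.195), and of the inhibitors of FGF signalling Il17rd (-1.82 ± 0.66, adjusted p = 0.267) and Spry4 (-0.83 ± 0.39, adjusted p = 0.359). Sp5 passed the threshold without medulloblastoma 1 (-2.26, adjusted p = 0.0429), but, as it was tested only through the cerebellum's signal, it had to differ to be tested at all.

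None of the 7 tested genes among other isthmic and midbrain factors was called, and their median was 0.01. Pou4f1, a POU homeodomain factor of midbrain and sensory neurons, read 653, 695, 176 and 778 against 158 (1.503 ± 0.69, adjusted p = 0.356), low in medulloblastoma 3 at its other probe set as well. Pax3 (-0.76 ± 0.57, adjusted p = 0.544) and the dopamine neuron factor Pitx3 (-0.76 ± 0.96, adjusted p = 0.727) were the next in size. Of the relatives of the 10 genes 4 were tested and 0 called, with a median of -0.79. Besides Irx6 these included Pax6, a granule cell factor (-1.02 ± 0.34, adjusted p = 0.241), and the Otx relative Crx, which directs photoreceptor genes (105, 369, 250 and 267 against 355; adjusted p = 0.657). A second, dim probe set of Crx did not share this pattern (8.44, 31.0, 71.8 and 92.8 against 19.0). Gbx1, the relative of Gbx2, read 65.8, 31.9, 19.9 and 12.7 against 350 and was not tested.

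In the list of forebrain transcription factors, 1 of 6 tested genes was called. It was Lhx2, a LIM homeodomain factor, at 496, 578, 738 and 852 against 13.8 (3.90 ± 0.38, SE, adjusted p = 0.0197). Its cerebellum signal alone was under 100, so it was tested through the tumours, as was Dlx5. The call was lost without medulloblastoma 2 and without medulloblastoma 4, and the size depended on the constant added, since the cerebellum signal is below it (4.92 with a constant of 8). Dlx5 (37.9, 178, 324 and 157 against 30.9; adjusted p = 0.441) and Six3 (110, 184, 262 and 231 against 430; adjusted p = 0.355) did not pass, and a second probe set of Six3 was higher in 3 of the tumours (23.9, 195, 116 and 150 against 24.03). The list's median was 0.14, and no regional identity of the tumours is read from 1 gene.

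The Hox genes and other markers of the hindbrain behind the cerebellum had a median of -0.32 over 8 tested genes, with 0 called. Hoxa5 (200, 295, 54.1 and 93.6 against 581; -1.86 ± 0.72, adjusted p = 0.291) was the furthest, through a probe set of a kind that can bind related transcripts, followed by Hoxb7 (-0.57 ± 0.43, adjusted p = 0.546) and Hoxd8 (-0.56 ± 0.68, adjusted p = 0.717). Among 15 cofactors of homeodomain proteins and Groucho corepressors, through which engrailed proteins repress, 0 were called and the median was 0.03. The cofactor gene Pknox2 read 314, 276, 310 and 356 against 736 (-1.16 ± 0.32, adjusted p = 0.167), Tgif1 read 745, 1155, 1691 and 996 against 497 (1.10 ± 0.41, adjusted p = 0.276), and Pbx3, a partner of engrailed and Hox proteins, read 1866, 2696, 4064 and 4618 against 1942 (0.68 ± 0.45, adjusted p = 0.498).

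**Figure D5:**
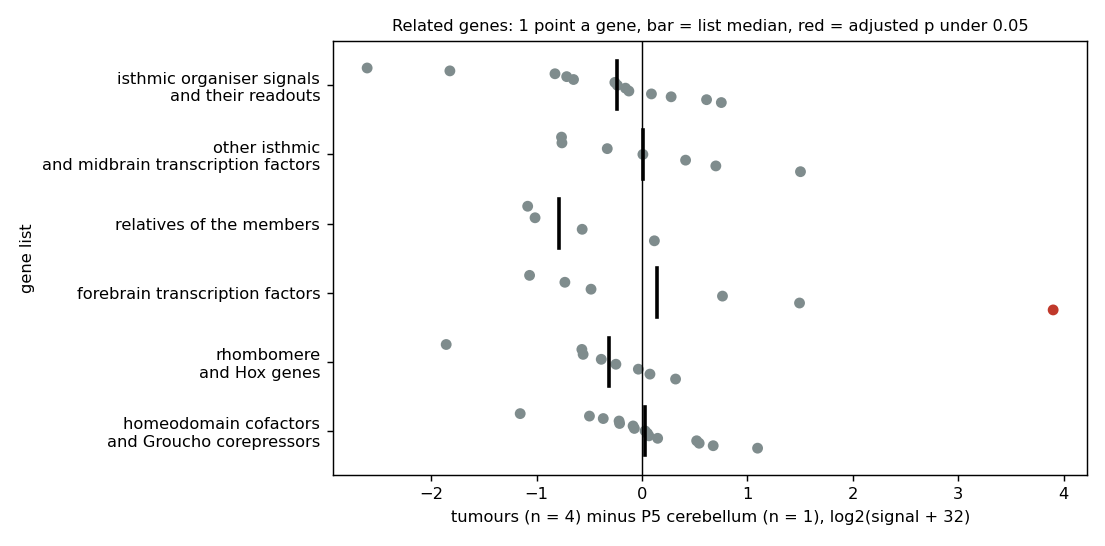
Mean of the 4 tumours minus the P5 cerebellum, log2(signal + 32), for the 53 tested related genes, 1 point per gene in 6 lists, with list medians as bars. Only Lhx2, in red at 3.90, passed an adjusted p of 0.05, and the list medians lie between -0.79 and 0.14.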

How the data were processed

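RNA from 4 medulloblastomas and 1 P5 cerebellum had been hybridised to 1 array each. The deposited values are intensities on a linear scale, made by the authors with MAS5, per the submitters' processing notes, which give no tool for medulloblastoma 3. Detection calls were not used here, and a genome build for the array values is not given in the sources used here. The extraction was Trizol for 4 arrays and the manufacturer's procedure for medulloblastoma 4, per the labels. Tumours were numbered in record order, so a number is only a name and pairs nothing.

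Probe sets were named from the platform annotation (34945 of 45101 had 1 symbol; 64 controls were left out). For each of 18193 genes the brightest probe set on average was used. Arrays were scaled to a mean of 500 after removing 2% at each end, and log2(signal + 32) was taken, which understates changes of low signals. The 14109 genes whose mean signal reached 100 were fitted with limma 3.58.1 in R 4.3.3 (lmFit, eBayes with a trend; two-sided, Benjamini-Hochberg over all genes tested, threshold 0.05). The spread is that of the tumours, with 3 residual degrees of freedom. The cerebellum is assumed to vary like them. For the members, an error after ± is an SD over tumours. For the other genes of regional patterning, Irx6 among them, an error after ± is the SE from limma, also where it is not called SE. Nothing says whether the tumours came from separate animals, so the p-values measure only the spread between these samples. The procedure was tested on simulated data. The number of arrays limits the precision.

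The members and lists were chosen with earlier results of these data known. Every member was named. Of each related list, the genes called and the 3 largest absolute differences were named, with Fgf8, Wnt1, Gbx1 and Irx4 added after their values were seen; for Otx1 and Otx2, the 5 nearest genes were named, passing over clone and prediction names. Alternatives were other scalings, constants, filters and probe set choices, no variance trend, each tumour left out, and the hmk arrays alone; a fit of the ken tumours against the cerebellum was chosen after seeing the data.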

Additional observations from a re-analysis of the deposited data

Results flagged for a closer look

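Otx2 had both ken tumours above the cerebellum and both hmk tumours below it. The hmk minus ken difference was -3.27 on the log2 scale. It was not tested: the labels do not make the prefix a group, and an exact test of 2 tumours against 2 cannot pass the threshold. Every ken tumour was above and every hmk tumour below the cerebellum for 3.57% of all genes tested.

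The dimmer Pax5 probe set had the reverse: its hmk tumours lay above and its ken tumours below the cerebellum, with a hmk minus ken difference of 0.82. The hmk signals, 160 and 143, exceeded the cerebellum's 142 by little, and the other Pax5 probe set had all 4 tumours below the cerebellum. This difference was not tested either, and 3.11% of all genes had this arrangement.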

How the results depend on the processing

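No paired analysis was possible because there was 1 cerebellum array and the numbers are only names. The members below the cerebellum in all tumours numbered 6, and between 5 and 8 under the alternatives; with equal array medians (all-gene median 0.12 in place of -0.07) En2 left them. Otx1 no longer counted as above in all tumours (0 genes) with a floor of 50, where medulloblastoma 1 and the cerebellum are both at the floor, and with the ken tumours alone 2 members were above, Otx1 and Otx2. Otx2's mean difference was -2.62 in the hmk arrays and 0.65 in the ken tumours.

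Over all genes, 44 were higher and 25 lower. These numbers were 78 and 20 with equal medians, 45 lower with a constant 4 times as large, 14 and 12 with no filter, 11 and 5 with all probe sets averaged, and 0 and 0 without a variance trend. They were 837 and 841 in the hmk arrays, and 21 and 16 in the ken tumours with the cerebellum, both of which take the spread from 2 tumours. With each tumour left out, they ran from 0 to 448 higher (without medulloblastoma 4 and 1) and from 0 to 383 lower. Related genes called were 1 higher and 0 lower, and 0 higher without a trend. In the hmk arrays 3 of the 53 were higher (Lhx2, Pbx3, Tgif1) and 4 lower (Hoxa5, Il17rd, Pax6, Sp5). Nothing is read from these, beside the 837 and 841 of all 14109 genes in that fit. With each tumour left out there were 0 to 1 related genes higher and 0 to 1 lower. Low signals limit Otx1 in medulloblastoma 1 and the cerebellum, En1, Gbx2 and Pax5.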
